A study of Homo sapiens with 2 samples.

Results

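Described here are 10 transcription factor genes of the airway epithelium, SOX2, SOX4, SOX9, TP63, FOXA1, FOXA2, ELF3, EHF, SPDEF and GATA6, as they were expressed in BEAS-2B cells and in BEAS-2B cells that overexpress the cation channel TRPV3. They were taken by symbol from the gene identifiers of both count tables, and 10 of 10 were found among the 58051 genes listed. BEAS-2B is an immortalised line from human bronchial epithelium. Parental cells had the genotype WT and were used between passage 20 and 30. TRPV3-OE cells had the genotype TRPV3-OE and were used between passage 4 and 8. Both lines were grown in LHC-9 medium on a collagen and fibronectin coat, plated at the same density and frozen at confluence. How TRPV3 was introduced, and whether the line is a clone or a pool, is not given in the sources used here.

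Each group has 1 library, so no difference has a replicate check, no p-value is given, and passage and genotype cannot be told apart. The libraries held 17450658 and 17477953 gene counts, and TRPV3 itself had 26 counts in the parental and 54077 in the TRPV3-OE library. Gene coordinates are those of the files (GRCh38.p7). Levels are counts per 1000000 scaled counts (CPM), with exact 95% Poisson intervals. Ratios are TRPV3-OE over parental on the log2 scale, with exact 95% conditional binomial (Clopper-Pearson) intervals. The intervals speak to counting error alone and hold no spread between samples. No molecular identifiers are described that would tell PCR copies from separate molecules, so the intervals may also be too narrow. In these bulk samples, fewer cells expressing a gene and less RNA per cell cannot be told apart.

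The 10 factors act at different steps of airway lineage choice. SOX2 marks the foregut region that forms the conducting airway and is kept in adult airway epithelium, SOX9 marks the growing tips of the lung buds, and TP63 is the defining factor of basal cells, the stem cells of the pseudostratified airway. FOXA1 and FOXA2 are forkhead pioneer factors that open chromatin at endodermal genes, GATA6 is an early endoderm and lung factor, and SOX4 is active in many progenitor and migrating cells. ELF3, EHF and SPDEF are ETS family factors of epithelia: ELF3 and EHF act in differentiating epithelia, and SPDEF drives mucous differentiation of goblet cells.

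Of the 10 factors, 3 were higher in the TRPV3-OE library and 1 was lower. SOX2, which was all but absent from the parental library, FOXA2 and ELF3 were at least 2-fold higher, SPDEF was at least 2-fold lower, and the other 6 (SOX4, SOX9, TP63, FOXA1, EHF and GATA6) lay within 2-fold. The call needed a ratio past 2-fold whose interval, on the same side, left out 1. Of 11466 measured genes, those whose counts in both libraries sum to 100 or more, 5.31% were called higher and 5.35% lower, or 10.7% in either direction, against 3 and 1 of the 10 factors. The 10 factors and the limits were chosen with earlier results of these data known, so this comparison is not independent of them. All 10 factors are measured, but SOX2 reached the minimum through the TRPV3-OE library alone and so had to differ. The median log2 ratio of the 10 was 0.06, and that of all measured genes was −0.03. The 10 genes together took 7871 parental counts (0.0451% of the library) and 9028 TRPV3-OE counts (0.0517%).

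**Figure D1:**
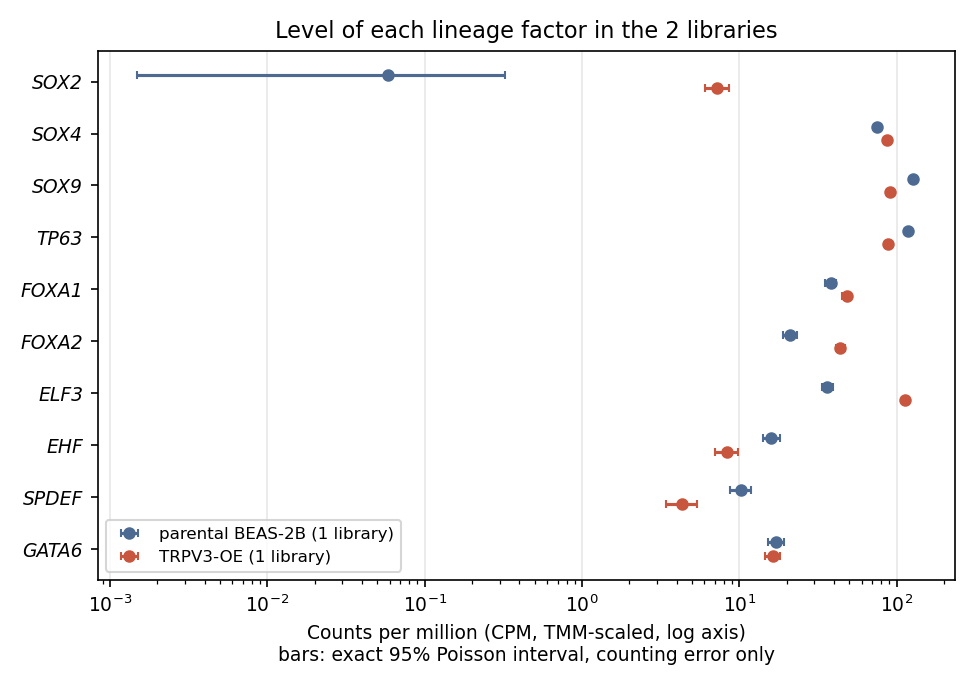
Level of each factor in CPM (log axis) in the parental (blue) and TRPV3-OE (red) library, with exact 95% Poisson intervals. SOX2 stands apart at 0.0584 CPM (parental) and 7.24 CPM (TRPV3-OE), whereas the intervals of GATA6 overlap.

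The windows before the annotated starts of called factors are shown for orientation. They come from a table of RefSeq starts (GRCh38.p14); the entries of SOX2, ELF3 and SPDEF were used, and FOXA2 was not analysed here. Capitals mark matches, on either strand, to 7 short motifs. The box motifs were searched as TATAAA for the core promoter element of that name and CCAAT for the other. The SOX motifs were ACAAAG or its variant AACAAT, the forkhead motif was TGTTTAC, the ETS motif was CGGAAG, and the motif of GATA factors was AGATAA. For SOX2 (chr3:181711675-181711924, plus strand) and SPDEF (chr6:34556330-34556579, minus strand) the 250 bases before the start are given. For ELF3 (chr1:202010541-202010570, plus strand) only the 30 bases around its TATA box are given, because the deposited gene models place an exon of a longer ELF3 transcript over the whole window.
SOX2: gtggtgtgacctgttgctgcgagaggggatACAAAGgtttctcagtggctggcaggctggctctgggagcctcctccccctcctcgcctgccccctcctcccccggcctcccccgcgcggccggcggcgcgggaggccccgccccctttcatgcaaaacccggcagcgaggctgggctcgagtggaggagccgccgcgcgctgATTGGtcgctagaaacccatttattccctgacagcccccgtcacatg
SPDEF: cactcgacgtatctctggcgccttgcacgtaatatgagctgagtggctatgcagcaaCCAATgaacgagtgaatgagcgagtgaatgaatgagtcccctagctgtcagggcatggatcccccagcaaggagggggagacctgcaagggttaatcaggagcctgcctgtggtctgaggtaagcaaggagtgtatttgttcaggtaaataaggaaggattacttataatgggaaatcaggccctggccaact
ELF3: caggggacacacTATAAAgccctgagctca
The SOX2 window is 68.8% G and C and holds a CCAAT box on the opposite strand 43 to 47 bases before the start and a SOX core (ACAAAG) 215 to 220 bases before it. The SPDEF window is 50.8% G and C and holds only a CCAAT box, 189 to 193 bases before the start. ELF3 has a TATA box 29 to 34 bases and a CCAAT box 69 to 73 bases before the start. Among 35116 windows of the same length in the table, 10.7% hold TATAAA, 32% CCAAT, 13.7% ACAAAG, 8.98% AACAAT, 2.98% TGTTTAC, 16.5% CGGAAG and 9.17% AGATAA. A match describes letters only and is not evidence of binding.

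Among the SOX factors, SOX2 went from 1 count in the parental library to 129 in the TRPV3-OE library. That is 0.0584 CPM (0.00148 to 0.325) against 7.24 CPM (6.05 to 8.61), so the intervals lie far apart. The log2 ratio was 6.96, with an interval of 4.45 to 12.27 that is wide because of the single parental count, and 3 of the 11466 measured genes had a higher ratio. SOX2 is measured through the TRPV3-OE library alone, so a high place among measured genes was fixed in advance and is not read. SOX2 (ENSG00000181449) is a single-exon gene at chr3:181711924-181714436 on the plus strand. No exon of another gene overlaps it on either strand, and 2.03% of its stretches of 50 bases also occur in transcripts of other genes, among them SOX1 and SOX21. The long noncoding gene SOX2-OT, which spans SOX2 on the same strand, had 0 and 4 counts.

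SOX4 (chr6:21592768-21598619, plus strand) had 1292 parental and 1551 TRPV3-OE counts, or 75.4 CPM (71.4 to 79.7) and 87.1 CPM (82.8 to 91.5). The log2 ratio of 0.21 (0.10 to 0.32) is a 1.15-fold higher level, small but outside counting error. SOX9 (chr17:72121020-72126420, plus strand), the most abundant of the 10 per length in both libraries, had 2173 and 1614 counts. Its level was 127 CPM (122 to 132) against 90.6 CPM (86.3 to 95.2), with a log2 ratio of −0.49 (−0.58 to −0.39), or 1.40-fold lower. The 3 SOX factors thus differed in direction: SOX2 and SOX4 were higher and SOX9 lower in the TRPV3-OE library.

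TP63 (ENSG00000073282, chr3:189631416-189897279, plus strand) encodes the p63 isoforms that maintain basal cells. It had 2024 counts in the parental and 1580 in the TRPV3-OE library, or 118 CPM (113 to 123) and 88.7 CPM (84.4 to 93.2). The log2 ratio was −0.41 (−0.51 to −0.32), a 1.33-fold lower level that is outside counting error and within 2-fold. Counts per gene do not separate the full-length from the N-terminally truncated isoforms. TP63 and SOX2 both lie on the long arm of chromosome 3.

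Both FOXA genes were higher in the TRPV3-OE library, FOXA2 more than FOXA1. FOXA1 (chr14:37589984-37596059, minus strand) had 653 and 856 counts, or 38.1 CPM (35.3 to 41.2) and 48.1 CPM (44.9 to 51.4), with a log2 ratio of 0.33 (0.19 to 0.48). FOXA2 (chr20:22581005-22585455, minus strand) had 362 and 782 counts, or 21.1 CPM (19.0 to 23.4) and 43.9 CPM (40.9 to 47.1). Its log2 ratio of 1.05 (0.87 to 1.24) is 2.08-fold, just past the limit, and the interval of 1.83-fold to 2.36-fold spans 2-fold. Which of the pair is the more abundant per length depends on the length used, as given with the order of levels.

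These 3 epithelial ETS factors divided. ELF3 (ENSG00000163435, chr1:202007945-202017188, plus strand) had 622 parental and 2001 TRPV3-OE counts, or 36.3 CPM (33.5 to 39.3) and 112 CPM (107 to 117). The difference of 76.1 CPM was the largest gain among the 10, and the log2 ratio was 1.63, or 3.09-fold (2.83 to 3.39). Of its exon bases, 9.23% are shared with a gene on the same strand, where reads are left out of the counts, and that gene (ENSG00000249007) had 0 and 4 counts. The antisense gene ELF3-AS1 had 15 and 35 counts under stranded counting.

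EHF and SPDEF were lower. EHF (chr11:34621093-34661057, plus strand) had 274 and 148 counts, or 16.0 CPM (14.2 to 18.0) and 8.31 CPM (7.03 to 9.76). Its log2 ratio of −0.94 (−1.24 to −0.65) is 1.92-fold and stops just short of the 2-fold limit. SPDEF (chr6:34537802-34556333, minus strand) had 175 and 77 counts, or 10.2 CPM (8.76 to 11.8) and 4.32 CPM (3.41 to 5.40), with a log2 ratio of −1.24 (−1.65 to −0.85), or 2.36-fold lower. The interval of 1.80-fold to 3.13-fold lower spans 2-fold. For both genes the intervals of the libraries do not overlap. GATA6 (chr18:22169443-22202528, plus strand) had 295 and 290 counts, or 17.2 CPM (15.3 to 19.3) and 16.3 CPM (14.5 to 18.3). Its log2 ratio of −0.08 (−0.32 to 0.16) holds 0, so a difference in GATA6 was not detectable at this depth, and the interval runs from 1.25-fold lower to 1.12-fold higher.

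**Figure D2:**
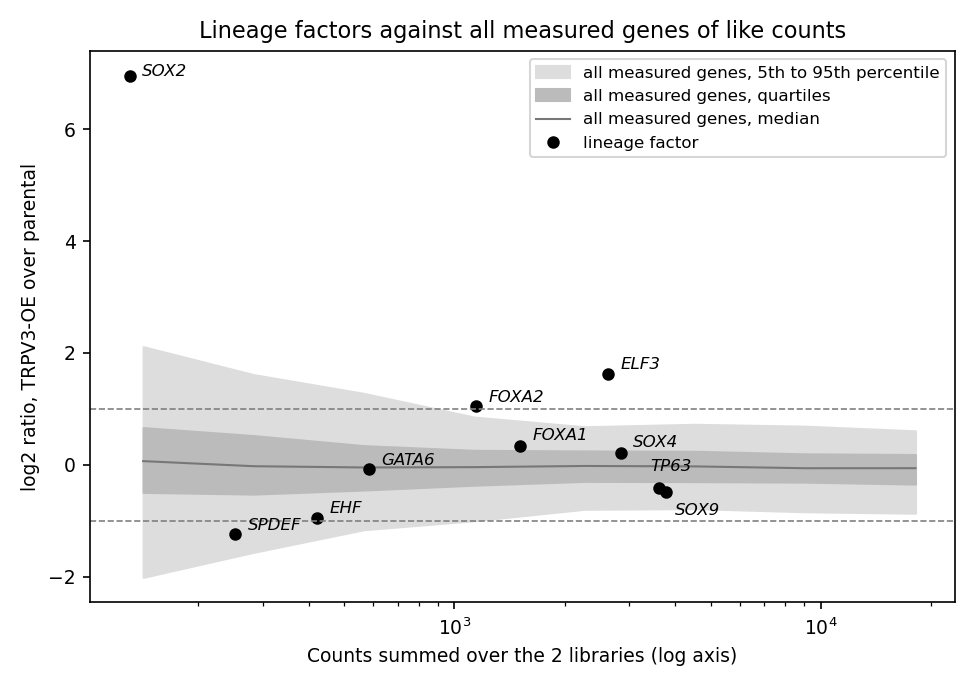
The log2 ratio (TRPV3-OE over parental) of each factor against its counts summed over both libraries (log axis), over the quartiles and the 5th and 95th percentiles of all measured genes in bins of like counts. SOX2 (6.96), ELF3 (1.63) and FOXA2 (1.05) lie above the band, and SPDEF and EHF lie inside it. SOX2 is measured through the TRPV3-OE library alone, so its place above the band was fixed in advance.

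How far a ratio of this size is from that of other genes depends on the count. Among the 2545 genes with 1600 to below 3200 summed counts, where ELF3 lies, 1.34% were called higher and the 95th percentile of the log2 ratio was 0.68. For FOXA2 the like group is 2358 genes with 800 to below 1600 counts, of which 3.48% were called higher, with a 95th percentile of 0.85. Among 1005 genes with 100 to below 200 counts, where SOX2 lies, 17.3% were called higher and the 95th percentile was 2.11. SOX2 came into this group through the TRPV3-OE library alone, so its place in the group is not read. SPDEF lies among 1117 genes with 200 to below 400 counts, of which 11.4% were called lower, and the 5th percentile there was −1.57, below its −1.24. The 5th percentile around EHF (400 to below 800 counts) was −1.16, also below its ratio of −0.94.

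Ratios in the 2 libraries also varied by position in the genome, and the genes around each factor are given for that reason. Over the 50 nearest measured genes the median log2 ratio was −0.11 around SOX2, −0.14 around TP63, −0.37 around SOX9 and −0.18 around SPDEF. The 50 genes spanned from 3.87 megabases around SPDEF to 23.5 around FOXA1, with 18.9 around FOXA2, so they are not all close by. Around ELF3 the median was 0.29 and around FOXA2, on chromosome 20, it was 0.56, with 8 of the 50 called higher and 1 lower. Around EHF, on the short arm of chromosome 11, it was −0.72, with 12 of 50 called lower, and around SOX4 −0.67, with 11 called lower. Around FOXA1 it was 0.19 and around GATA6 0.30.

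After subtraction of these medians SOX2 stood at 7.07, ELF3 at 1.34 and SPDEF at −1.06 (2.09-fold), all still past 2-fold. The subtraction was not made for all measured genes, so no share of all genes can be set beside these. FOXA2 came to 0.50, or 1.41-fold, and was no longer past 2-fold. EHF went to −0.23, close to its neighbours. SOX4 came to 0.88, or 1.83-fold, from its own ratio of 0.21. SOX9 came to −0.12, TP63 to −0.28, FOXA1 to 0.14 and GATA6 to −0.38. What sets the level of these regions was not tested.

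**Figure D3:**
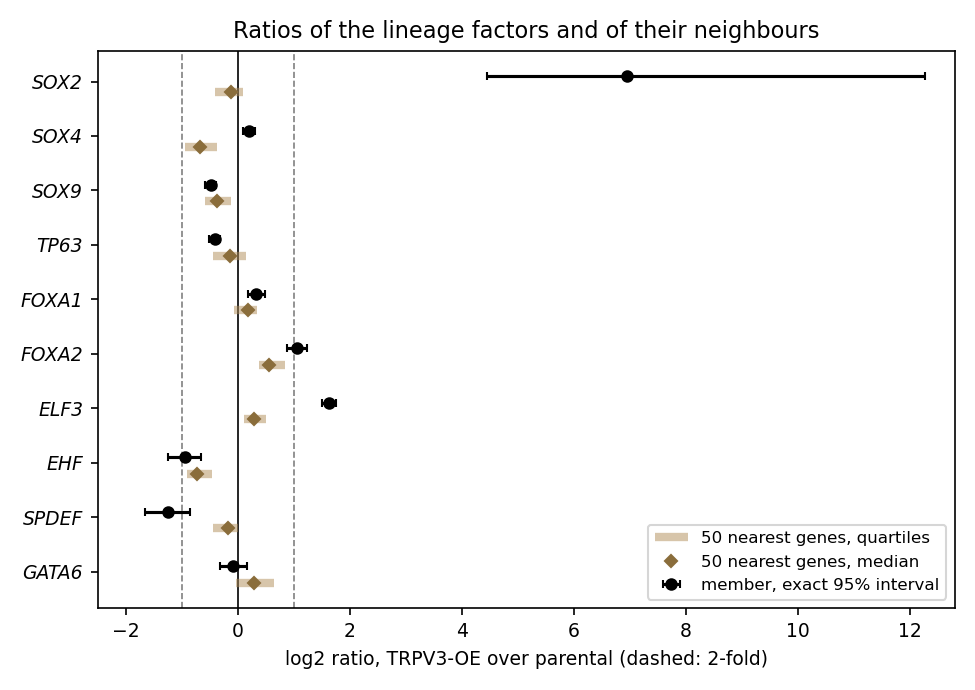
The log2 ratio of each factor with its exact 95% interval (black) and the median and quartiles of its 50 nearest measured genes (brown); dashed lines mark 2-fold. SOX2, ELF3 and SPDEF lie outside the quartiles of their neighbours by the widest margins, and EHF (−0.94) sits close to its neighbours (−0.72).

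Levels of different genes are compared per kilobase of exon length. In the parental library the order was SOX9 (32.2 CPM per kb), TP63 (15.9), SOX4 (12.9), FOXA1 (9.57), FOXA2 (8.12), SPDEF (5.34), ELF3 (5.05), GATA6 (4.37), EHF (3.65) and SOX2 (0.0232). The neighbours in this order whose intervals overlap were FOXA1 and FOXA2, SPDEF and ELF3, ELF3 and GATA6, and GATA6 and EHF. In the TRPV3-OE library the order was SOX9 (23.0 CPM per kb), FOXA2 (16.9), ELF3 (15.6), SOX4 (14.9), FOXA1 (12.1), TP63 (11.9), GATA6 (4.13), SOX2 (2.88), SPDEF (2.26) and EHF (1.89). There the intervals of FOXA2 and ELF3, ELF3 and SOX4, FOXA1 and TP63, SOX2 and SPDEF, and SPDEF and EHF overlap.

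Thus TP63 moved from the 2nd to the 6th place while FOXA2 moved from the 5th to the 2nd and ELF3 from the 7th to the 3rd. TP63 and FOXA1, its neighbour in the TRPV3-OE order, overlap there. SOX2, last in the parental library with an interval far below the others, lay near SPDEF and EHF in the TRPV3-OE library and overlapped SPDEF. The exon length in the files adds up all transcripts of a gene and is longest for TP63 (7454 bases) and ELF3 (7191 bases), which lowers their values. With the length of the principal transcript instead (4909 and 4994 bases, a setting added after the data were seen), ELF3 in the TRPV3-OE library reached 22.5 CPM per kb, with an interval that overlaps that of SOX9 (23.0), and TP63 was 4th with 18.1. With that length FOXA1 (13.3 CPM per kb) stood above FOXA2 (8.80) in the parental library without overlap, and in the TRPV3-OE library FOXA2 (18.3) and FOXA1 (16.8) overlapped, whereas with the summed exon length they overlapped in the parental library and FOXA2 was higher in the TRPV3-OE library. SOX2 (2.88) and EHF (2.64) also overlapped in the TRPV3-OE library with that length, and SOX2 stood above EHF with the summed exon length.

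**Figure D4:**
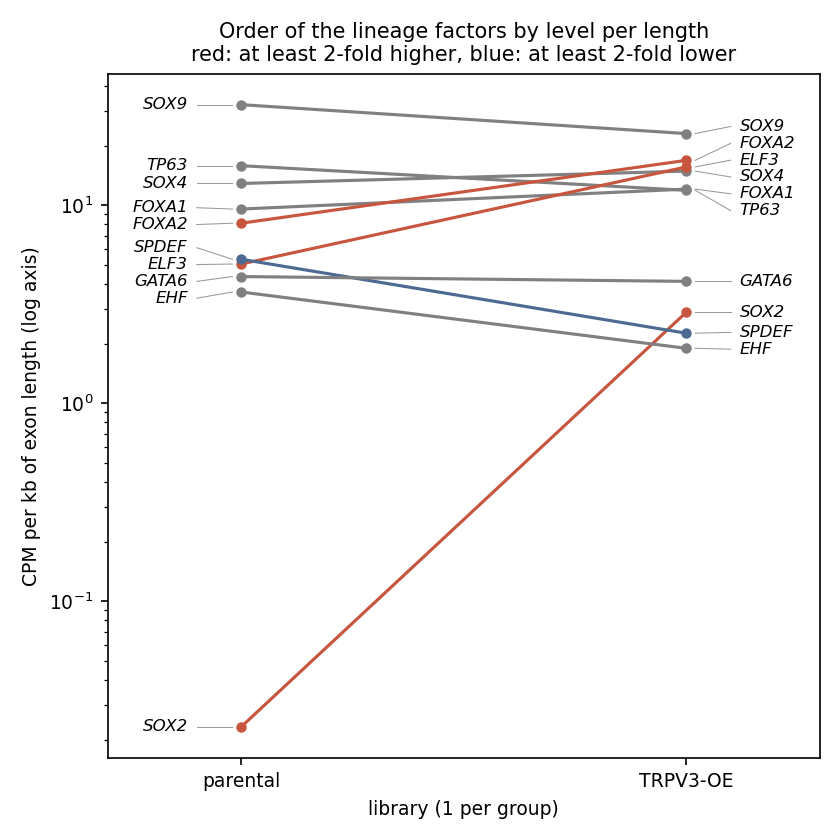
CPM per kb of exon length (log axis) of the 10 factors in the parental (left) and TRPV3-OE (right) library, with called genes in colour. SOX9 is first in both libraries (32.2 and 23.0 CPM per kb), and SOX2 goes from 0.0232 to 2.88 CPM per kb.

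Other genes of the same families are given by family, beside the 10.7% of all measured genes called in either direction. Of 16 other SOX genes 4 were measured, with 0 called higher and 0 lower and a log2 ratio from −0.55 for SOX15, a factor of squamous and muscle cells, to 0.88 for SOX12, a relative of SOX4. SOX7 and SOX13 had −0.21 and −0.01. Of the 12 unmeasured SOX genes 8 had 0 counts in both libraries. SOX3 and SOX1, the closest relatives of SOX2, were among these. A count of 0 was set against a fixed limit of 3 counts, or 0.175 CPM (parental) and 0.168 CPM (TRPV3-OE). This limit is not the exact Poisson interval given for other levels.

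Of 19 other forkhead genes 10 were measured, with 0 called higher, 1 lower, a median of 0.05 and a mean of −0.06. The one lower was FOXD1, a factor of mesenchymal and kidney stromal cells (786 and 352 counts, log2 ratio −1.22). FOXC1 had −0.86, FOXP1, a partner of FOXP2 in the lung epithelium, 0.75 and FOXO1 0.34. FOXA3, the third member of the FOXA group, had 0 counts in both libraries.

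Of 24 other ETS genes 16 were measured, with 1 called higher, 2 lower and a median of −0.20. ETS1, the founding member of the family, had 3575 and 1537 counts (log2 ratio −1.27, −1.36 to −1.19) and FLI1, its relative, had 1405 and 644 (−1.18). Both lie on chromosome 11, and the median of the nearest genes was −0.09 for each. ETV1 was higher, at 150 and 350 counts (1.17), and ETV4, with 487 and 1011 counts, stopped short of the limit at 1.997-fold. ELF5, another epithelial ETS gene, had 0 counts in both libraries. Among other GATA genes and relatives of TP63, TP73, which acts in multiciliated cells, was lower with 146 and 70 counts (−1.12, or −0.92 after subtraction of its neighbours), and GATA2 had 0.73.

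Among 25 other factors of epithelial lineages 15 were measured, of which 4 (26.7%) were called higher and 1 (6.67%) lower, with a median of 0.23. This list too was chosen with earlier results of these data known. GRHL1, a grainyhead factor of epithelial barrier genes, had 179 and 666 counts (log2 ratio 1.84, 1.60 to 2.09). OVOL2, a repressor of mesenchymal genes on chromosome 20, had 129 and 342 counts (1.35, or 0.75 after subtraction of its neighbours), and TFAP2C, an AP-2 factor, 416 and 1006 (1.22). KLF4, named after its value was seen, was the other one higher, at 1.11. IRX3, an Iroquois homeobox gene, was lower with 88 and 18 counts (−2.35). NKX2-1, the factor that defines lung endoderm, had 0 counts in both libraries.

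Among 12 factors of ciliated and neuroendocrine cells 6 were measured, with 1 higher, 1 lower (TP73 again) and a median of 0.31. The one higher was MYB, an early factor of the ciliated and secretory lines, with 78 and 357 counts (log2 ratio 2.14, 1.78 to 2.51). RFX3 and MCIDAS, which act in multiciliated cells, had 0.64 and 0.69. FOXJ1, the defining ciliated factor, had 0 and 4 counts, and NEUROD1, INSM1 and POU2F3 had 0 in both libraries.

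**Figure D5:**
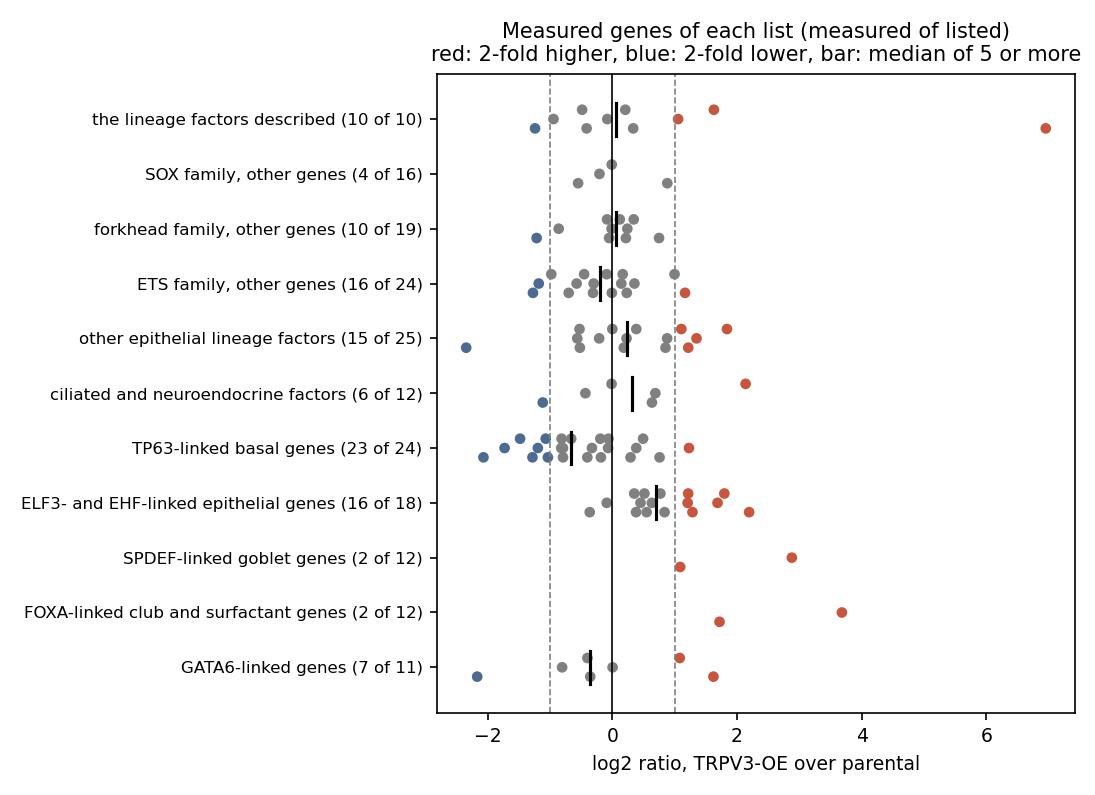
The log2 ratio (TRPV3-OE over parental) of each measured gene of 11 lists, the 10 factors included, with genes called higher in red and lower in blue and the median as a bar where 5 or more were measured. The basal list lies to the left (median −0.66) and the ELF3- and EHF-linked list to the right (median 0.70) of the lineage factors (median 0.06).

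Genes known to be controlled by, or to mark the same cells as, the factors were then described. These lists rest on background knowledge but were chosen with earlier results of these data known, so they are not independent of them. Regulation was not measured. Beside these lists, 5.31% of all measured genes were called higher and 5.35% lower, with a median log2 ratio of −0.03. Of 24 basal genes linked to TP63, 23 were measured, 7 (30.4%) were lower and 1 (4.35%) higher; the median was −0.66 (log2), against −0.41 for TP63 itself. The lowest were COL17A1 and ITGA6, which anchor basal cells in hemidesmosomes (−2.07 and −1.73), DLK2, a basal cell marker (−1.48), and LAMB3, a chain of laminin-332 (−1.28). The one higher, named after its value was seen, was TRIM29 at 1.23. KRT5, the basal keratin, had 22652 and 17827 counts (−0.40).

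Of 18 epithelial genes linked to ELF3 and EHF, 16 were measured, 6 (37.5%) were higher and 0 lower, with a median of 0.70. Among all measured genes 5.31% were higher and 5.35% lower. The highest were the tight junction claudins CLDN4 (2.19) and CLDN7 (1.69), MAL2, a membrane protein of apical transport (1606 and 5801 counts, 1.80), and the serine protease gene PRSS22 (1.29). ST14 (1.22) and RAB25 (1.21), named after their values were seen, completed the 6. ELF3 itself was 3.09-fold higher and EHF 1.92-fold lower in the same library.

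The goblet cell list linked to SPDEF had 2 of 12 genes measured, and both were higher, beside 5.31% of all measured genes. With 2 measured genes no share is read for the list. AGR2, a disulfide isomerase of mucus-producing cells, had 601 and 4601 counts, a log2 ratio of 2.88 (2.76 to 3.01), and SCIN, an actin-severing protein, had 171 and 378 (1.09). Of the other 10 genes 6 had 0 counts in both libraries. The club and surfactant list linked to FOXA genes also had 2 of 12 measured, both higher: the antiprotease genes SLPI (56 and 748 counts, 3.68) and WFDC2 (87 and 298, 1.72). SCGB1A1, which defines club cells, had 0 counts in both libraries.

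Of 11 genes linked to GATA6, 7 were measured, with 2 higher and 1 lower and a median of −0.36. The ligand genes BMP4 (85 and 272 counts, log2 ratio 1.62) and WNT7B (824 and 1813, 1.08) were higher, the basement membrane collagen gene COL4A1 was lower (−2.17), and DAB2, an endocytic adaptor, had −0.81. Of the 12 cartilage matrix genes linked to SOX9, 0 were measured, and their summed level was 2.04 CPM (parental) and 6.51 CPM (TRPV3-OE).

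The labelled lung epithelium was checked against markers. Of all measured genes, 5.31% were called higher and 5.35% lower. All 6 epithelial markers were measured and 0 were called, with a median log2 ratio of 0.37. All but KRT7 also belong to the genes linked to ELF3 and EHF above. EPCAM had 0.55, KRT19 0.45, KRT8 0.38 and KRT18 0.35, while CDH1 had −0.09 and KRT7 −0.24. Of 5 airway basal markers 4 were measured, 2 were lower (DLK2 at −1.48 and KRT15 at −1.20) and the median was −0.80. All 5 also belong to the basal genes linked to TP63 above, so they are not a separate result. KRT5 had −0.40 and NGFR 0.29, and KRT14, with 15 and 0 counts, was not measured. Of 8 fibroblast markers 2 were measured (summed level of the list 97.1 and 124 CPM). FBLN1, at 72.7 and 107 CPM (log2 ratio 0.56), lay in the range of the more abundant factors, COL1A1 had −0.58, and COL3A1 and LUM had 0 counts in both libraries. Of 7 endothelial markers 1 was measured, CDH5, lower at −2.99 (summed level 16.7 and 3.31 CPM), with KDR, CLDN5 and TEK at 0. Of 7 immune markers 1 was measured, CD14, higher at 2.62 (summed level 4.32 and 25.9 CPM), with PTPRC, CD3E, MS4A1 and LYZ at 0. Of 5 alveolar markers 2 were measured, AGER at −0.05 and LAMP3 at −2.11 (summed level 31.1 and 14.4 CPM), and SFTPC and HOPX had 0 counts.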

How the data were processed

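RNA was sequenced in 2 libraries, 1 for each genotype label. The authors deposited raw gene counts, made with featureCounts 1.5.0-p3 on the reverse-strand setting and Ensembl release 87 gene models of GRCh38.p7, per the file headers. The headers show no option for multi-mapping or multi-overlapping reads, so such reads were left out by default. STAR and DESeq2 are named per the submitters' processing notes; the counts are not normalised. Kit and read length: not given in the sources used here.

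Scaling used TMM (edgeR 4.0.16, R 4.3.3; factors of 0.981 and 1.02), without fitting a model. Intervals came from scipy 1.17.1 in Python 3.11.15. Ratios used 0.5 in place of a 0. Symbols came from a gene name table (56948 of 58051 identifiers matched), transcripts and principal isoforms from GENCODE 29. The 10 members and the 19 other gene lists, with all thresholds, were chosen with earlier results of these data known. Named genes are TRPV3, the 10 members and up to 4 measured genes per list with the largest absolute log2 ratio, and markers at 0 in both libraries. Family members at or near 0, KRT7, CDH1, KRT14 and the genes so marked in the text were named after their values were seen; a few listed genes are not reported here. Genes of like pattern were not sought, since 2 libraries give 1 ratio per gene. Alternatives were 3 other scalings (total counts, DESeq2 1.42.0 size factors, upper quartile), a prior count, other minimums and fold limits, subtraction of the 50 or 20 nearest genes, and other lengths.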

Additional observations from a re-analysis of the deposited data

How the results depend on the processing

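No paired analysis was possible because there is 1 library per group, which also leaves no replicate to leave out. No scaling moved the median of all measured genes by more than 0.0582 log2. Of 40 log2 ratios of the 10 factors under other scalings or a prior count of 5, 39 stayed within their interval, 1 moved (SOX2, to 4.42 with the prior count) and 0 reversed. Subtraction of neighbouring genes moved 16 of 20 and reversed 0, and left 2 factors higher (SOX2, ELF3) and 1 lower. No share of all measured genes was taken under this subtraction. The factors called were 3 higher and 2 lower at 1.5-fold, 1 higher and 0 lower at 4-fold, and 2 higher and 0 lower with a minimum of 500 counts, which SOX2, EHF and SPDEF do not reach. The background of 609 genes higher and 614 lower became 1347 and 1121 with a minimum of 1 count, 1094 and 942 with 20, 245 and 323 with 500, while the 1.5-fold limit gave 1455 and 1627 and the 4-fold limit 151 and 159; other minimums and limits change by construction how many genes qualify. By CPM without length 5 of 10 factors kept their place in the parental and 3 in the TRPV3-OE order. With principal transcript lengths, added after the data were seen, 4 did in each library. In place of the median, the mean log2 ratio of the 10 factors was 0.70 against 0.06 and that of the GATA6-linked genes −0.15 against −0.36. The other epithelial lineage factors had a median of 0.53 against 0.23 when genes from 20 counts up were taken. The median of other forkhead genes, 0.05, changed sign with those genes (−0.01) and as a mean (−0.06). An even split of 100 counts gives a log2 interval 1.19 wide, the limit of what this depth resolves at the minimum.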

Other observations

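Genes of the lists with 1 to 99 summed counts, below the minimum used in the report, were examined separately, a step added after the data were seen, and the genes named in this part were chosen after their values were seen. Of 48 such genes 12 passed 2-fold upwards and 5 downwards with an interval on that side of 1. Of all 11397 genes in that range 6.48% passed upwards and 4.45% downwards. These shares include genes with 1 to 5 summed counts, whose interval cannot leave out 1. In the files 40386 genes had at most 3 summed counts, and 35188 of these had 0. The list genes were not compared with genes of like counts. Among the higher ones were epithelial regulators: OVOL1, a zinc finger repressor of mesenchymal genes, had 8 and 64 counts (log2 ratio 2.94, 1.88 to 4.22), and GRHL3, a barrier factor, had 25 and 55 (1.08, 0.37 to 1.83). SOX21, a relative of SOX2 with which it shares a stretch of sequence, had 1 and 8 counts (2.94, 0.04 to 8.42).

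Some secretory and SOX9-linked genes below the minimum were also higher. The goblet genes TFF3 (1 and 12 counts, log2 ratio 3.53, 0.77 to 8.95) and MUC5B (1 and 11 counts, 3.40, 0.62 to 8.83) and the membrane mucin gene MUC1 (23 and 68 counts, 1.51) were among them. The cartilage collagen genes COL9A3 (18 and 73 counts, 1.96, 1.20 to 2.80) and COL2A1 (2 and 20 counts, 3.27, 1.22 to 6.41) were higher while SOX9 was lower.

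The 5 lower ones were GATA3, a GATA factor of luminal and squamous epithelia, with 54 and 10 counts (log2 ratio −2.49, −3.63 to −1.50), FOXL1, a mesenchymal forkhead gene, with 66 and 12 (−2.52, −3.54 to −1.62), ETV2 with 15 and 3 (−2.38, −4.81 to −0.56), KRT14 and LAMA1. KRT14, a basal keratin, had 15 and 0 counts, and LAMA1, a laminin chain, had 19 and 0 counts. With 3 counts in place of the 0, KRT14 was 5.20-fold and LAMA1 6.58-fold lower, which leaves out the counting error of the parental count. The exact log2 intervals ran up to −1.90 for KRT14 and −2.28 for LAMA1 and had no lower end. Of the long noncoding genes beside the factors, CASC15, next to SOX4, had 10 and 35 counts (1.75, 0.71 to 2.93), and GATA6-AS1 had 9 and 9.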
